A study of Mus musculus with 23 samples.

Results

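Expression of 10 genes of adipogenesis and fuel handling was measured by RNA-seq in mouse embryonic fibroblasts (MEFs) with an intact or a mutated glucocorticoid receptor (GR). The genes are 4 C/EBP transcription factors (Cebpa, Cebpb, Cebpd and Cebpg), the nuclear receptor Pparg, its textbook targets Fabp4 and Lpl, and the glucocorticoid-responsive metabolic genes Pdk4, Angptl4 and Glul. The members were taken by symbol from a table of 55487 genes, of which 15748 passed the filter on low counts and were tested, and all 10 members passed. The cells were primary FVB/NJ fibroblasts grown from E13.5 embryos of heterozygous crosses, after the head and organs had been removed. They were homozygous for the unmodified receptor (GRwt/wt), for a point mutation where the DNA-binding domains of a dimer touch (GRD/D), for one in the corresponding surface of the ligand-binding domain (GRL/L), or carried both changes (GRD+L/D+L). Each genotype received vehicle or 10 nM dexamethasone (Dex), a synthetic GR ligand, for 5 h, and the 8 groups held 3 libraries each except GRD/D vehicle, which held 2, giving 23 in all. The alleles were germline, so every cell of an embryo carried them, and the GRL and GRD+L lines were made by genome editing of GRwt/D zygotes and backcrossed. Homozygous GRL/L and GRD+L/D+L animals die around birth, so these genotypes were sampled before that stage. Per the study's design text, separate mice gave the 3 cultures within a genotype. By Xist and Y-linked genes every GRD+L/D+L library was male, while GRwt/wt, GRD/D and GRL/L each held libraries of both sexes. The part of sex in differences between genotypes was not tested. Counts per gene cannot show whether a point mutation is present, so the genotypes rest on the labels.

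GR binds DNA as a dimer at palindromic elements and acts on other genes through contacts with further factors. In preadipocytes given a hormone cocktail, C/EBPβ and C/EBPδ appear first, and they raise PPARγ and C/EBPα, which then turn on the genes of lipid uptake and storage. Glucocorticoid is a usual part of that cocktail, and during fasting the same hormone shifts muscle, liver and fat from glucose towards fatty acids. The cells studied here were fibroblasts given Dex alone, without the rest of an adipogenic mixture.

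All values below are CPM (counts-per-million), that is read counts relative to the library total after TMM scaling, and a log2 fold change (LFC) comes from edgeR's quasi-likelihood test over the 15748 genes. Calls required a p of 0.05 or less after Benjamini-Hochberg adjustment together with an LFC of 1 or more in either direction. Library totals were 16452539 to 23117080 counts, with 18667 to 20200 genes detected per library. Fibroblast markers summed to between 40526 and 65594 CPM in every library. Adipocyte markers summed to at most 2.41 CPM, and Adipoq was at 0 in 19, Cidec in 21 and Cfd in 22 of the 23 libraries. Endothelial markers summed to 11.6 to 50.6 CPM, skeletal muscle markers to 11.5 to 267 CPM, epithelial markers to 0.860 to 5.79 CPM and neural markers to 61.1 to 212 CPM. Macrophage markers were not even across groups, with sums of 18.6 to 4803 CPM in GRwt/wt vehicle, 16.9 to 98.1 CPM in GRwt/wt Dex, 265 to 1665 CPM in GRD/D, 299 to 739 CPM in GRL/L and 8.05 to 82.3 CPM in GRD+L/D+L. The highest of these was GRwt/wt vehicle replicate 3. GRwt/wt vehicle replicate 1 stood apart in another way. Its highest Spearman correlation with any library was 0.916, while that of every other library was at least 0.973. It also held the highest epithelial sum, 5.79 CPM, and the highest skeletal muscle sum, 267 CPM, with GRwt/wt Dex replicate 1 next at 173 CPM. In bulk RNA, a change in the number of cells of a type and a change in RNA per cell cannot be told apart. The LFC of Fkbp5, a direct GR target, was 3.49 in GRwt/wt, 1.68 for GRD/D, 0.12 for GRL/L and 0.07 for GRD+L/D+L, and the call was made in GRwt/wt (adjusted p = 2.67e-06).

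Promoter windows in the RefSeq table (GRCm38.p6, 250 bases before to 50 after each start) were held for 6 of the 10 members, in 8 windows. They were searched on both strands for TGTTCT, a GR half-site, for ACANNNTGT, the core of the palindromic GR element, and for TTGCNNAA, the core of a C/EBP site. Of 32851 windows of this length in the genome, 19.0% held the first, 6.85% the second and 10.8% the third. The windows of Pdk4 and Glul are shown because these genes were higher in every GRwt/wt Dex library than in any GRwt/wt vehicle library, and the downstream Pparg start because it was the only member window with a C/EBP core. Each stretch reads 5′ to 3′ on the gene's strand, ends before the annotated start, and has the motif matches in capitals.
Pdk4, chr6:5496310-5496528, minus strand: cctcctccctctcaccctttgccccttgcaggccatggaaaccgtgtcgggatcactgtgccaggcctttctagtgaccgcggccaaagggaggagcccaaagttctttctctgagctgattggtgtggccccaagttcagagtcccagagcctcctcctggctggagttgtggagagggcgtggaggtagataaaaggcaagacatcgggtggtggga
Glul, chr1:153899679-153899928, plus strand: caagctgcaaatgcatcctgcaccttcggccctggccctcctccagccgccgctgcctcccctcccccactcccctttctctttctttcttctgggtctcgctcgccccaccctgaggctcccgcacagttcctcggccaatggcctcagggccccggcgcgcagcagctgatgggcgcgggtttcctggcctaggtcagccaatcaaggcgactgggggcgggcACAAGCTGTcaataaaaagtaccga
Pparg, chr6:115421816-115422065, plus strand: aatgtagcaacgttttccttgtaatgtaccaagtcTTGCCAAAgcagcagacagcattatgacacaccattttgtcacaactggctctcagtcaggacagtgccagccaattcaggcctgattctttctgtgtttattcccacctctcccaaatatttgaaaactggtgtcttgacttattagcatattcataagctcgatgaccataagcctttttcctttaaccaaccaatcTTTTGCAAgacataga
The Glul window held 1 match to the palindromic core, ACAAGCTGT, whose first base was at position -25 from the start. The Pparg window held 2 matches to the C/EBP core, TTGCCAAA from position -215 and TTTTGCAA from position -16. The windows of Pdk4, Cebpa, Cebpb, Cebpg and the other Pparg starts held none of the 3 motifs, and a match describes letters only.

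In GRwt/wt cells, Dex came with higher Pdk4, Cebpd and Glul in every library, but none of the 10 members was called by edgeR. Genes were called in 0.159% of the 15748 tested, that is 25 genes, all higher with all libraries. At an unadjusted p under 0.05 there were 4 members (Cebpd, Pdk4, Angptl4 and Glul), and 2454 of all tested genes. The libraries of the 2 treatments did not overlap for 3 members, all higher with Dex, against 9.46% of all tested genes in either direction. The median LFC of the 10 members was 0.72, and that of all tested genes was -0.0093. The members were chosen with earlier results of these data known, so this is a description and not a test. The median of the members rested on GRwt/wt Dex replicate 2, the library with high Angptl4 and Fabp4, and was -0.080 without it. DESeq2 on the same counts called Cebpd (adjusted p = 0.00223) and Pdk4 (adjusted p = 8.70e-05), where it called 1.77% of genes, 119 higher and 160 lower. The number of genes edgeR called turned on the GRwt/wt vehicle libraries, with 41 higher and 34 lower without replicate 1, 182 and 192 without replicate 2, and 93 and 2 without replicate 3, and it was 14, all higher, without Dex replicate 2. The same fold changes in the other genotypes are taken up gene by gene below, beginning with the factors.

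**Figure D1:**
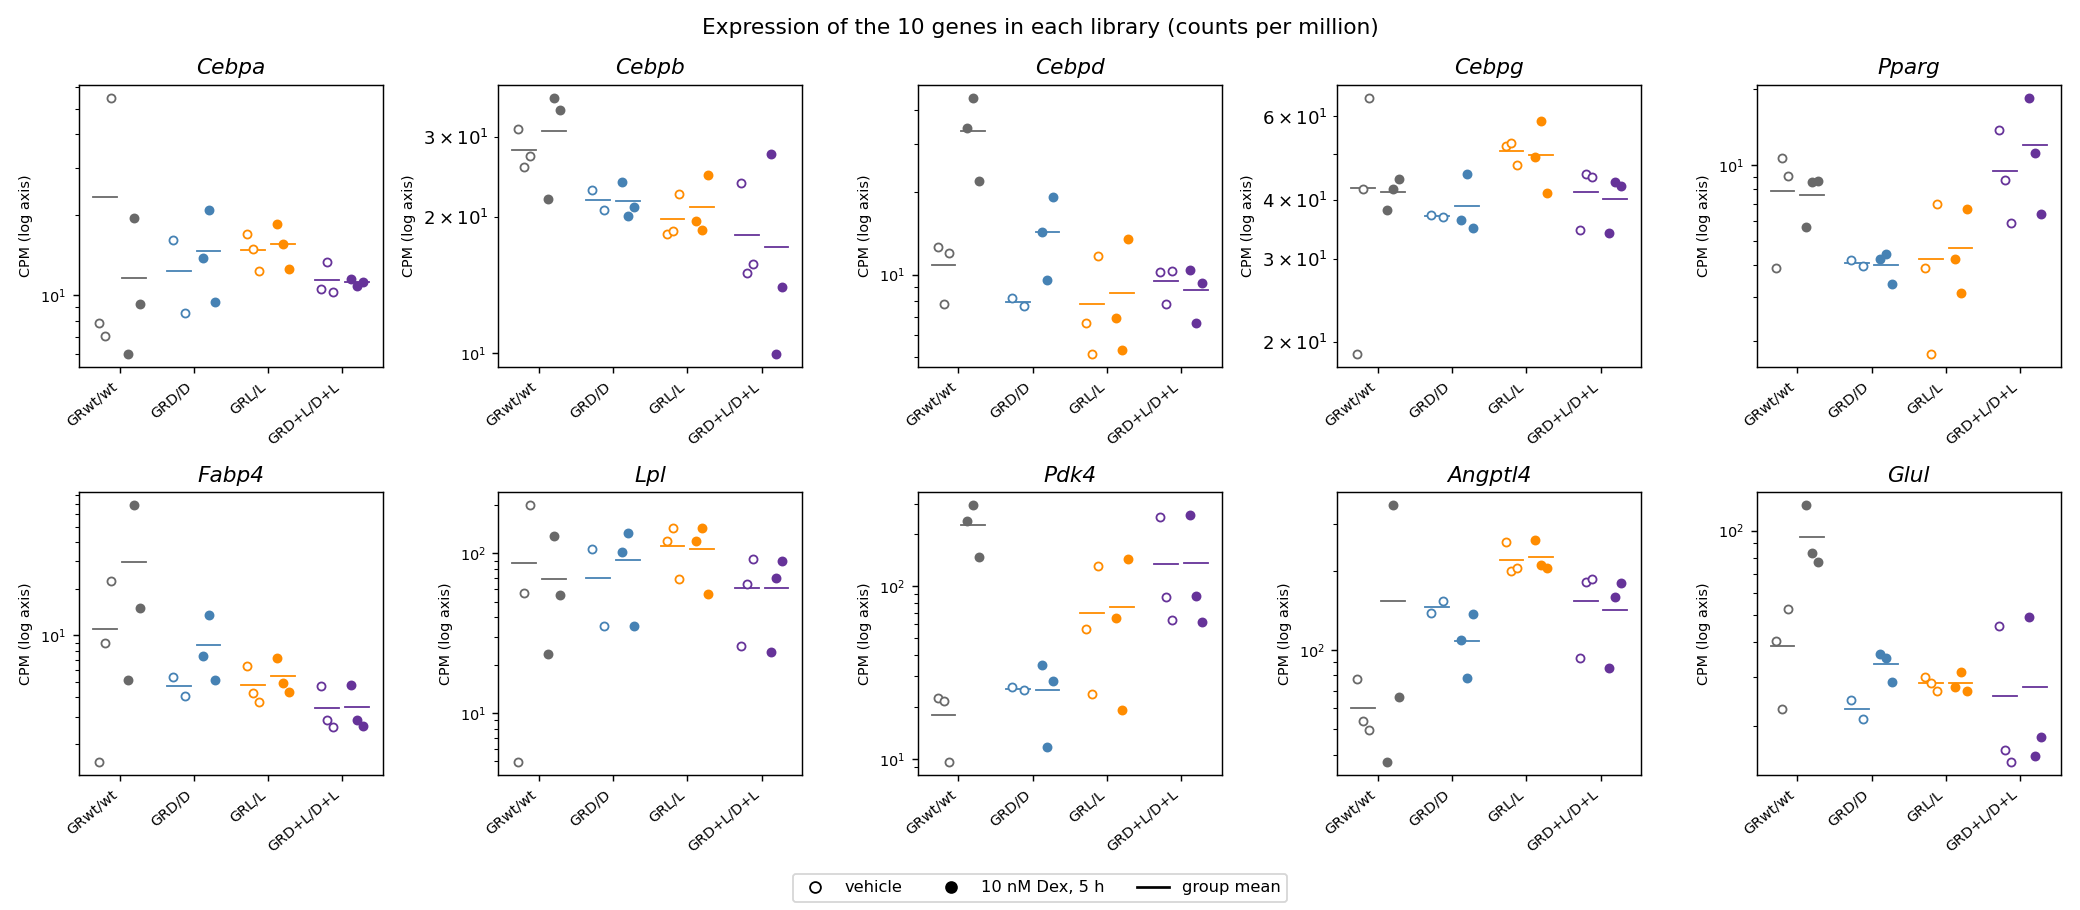
Expression of each gene in the 23 libraries, in CPM on a log axis, with genotypes along the horizontal axis. Open points are vehicle, filled points are 10 nM Dex for 5 h and bars are group means. Filled GRwt/wt points lie above all open ones for Cebpd, Pdk4 and Glul, while Angptl4 and Fabp4 each have a single high GRwt/wt Dex library.

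Cebpd (ENSMUSG00000071637, GRCm38 chr16:15887286-15891031, plus strand) encodes the C/EBP factor that glucocorticoid induces early in adipogenesis. In GRwt/wt it was at 12.6, 7.79 and 12.0 CPM in vehicle and at 34.5, 44.5 and 22.1 CPM with Dex in replicates 1 to 3. The lowest Dex library was above the highest vehicle library, and group means were 10.8 ± 2.65 and 33.7 ± 11.2 CPM (SD, n = 3 each). The fold was 3.11 (LFC 1.64 ± 0.37 SE), with an adjusted p of 0.097 from edgeR, which missed the threshold. In GRD/D it was at 8.18 and 7.66 CPM in vehicle and at 14.3, 9.55 and 19.3 CPM with Dex. Those libraries did not overlap either, in a genotype where 21.3% of all tested genes did not overlap, and the LFC was 0.86 ± 0.42 SE with an adjusted p of 1 in edgeR. GRL/L libraries held 6.66, 5.11 and 11.7 CPM in vehicle and 6.94, 5.31 and 13.5 CPM with Dex. GRD+L/D+L libraries held 10.3, 7.82 and 10.3 CPM in vehicle and 10.4, 6.67 and 9.29 CPM with Dex. In both of these genotypes the treatments overlapped, and the LFC was 0.13 ± 0.37 SE and -0.11 ± 0.37 SE.

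Cebpb (ENSMUSG00000056501, chr2:167688915-167690418, plus strand) encodes C/EBPβ, the partner of C/EBPδ at the start of adipogenesis, and was nearly level across treatments. GRwt/wt libraries were at 31.3, 25.7 and 27.2 CPM in vehicle and at 21.9, 36.6 and 34.3 CPM with Dex (LFC 0.14 ± 0.28 SE). Those values overlapped. All mutant vehicle libraries, at 15.0 to 23.8 CPM, lay below the lowest GRwt/wt vehicle library. The LFC against GRwt/wt in vehicle was -0.37 ± 0.32 SE for GRD/D, -0.50 ± 0.28 SE for GRL/L and -0.63 ± 0.28 SE for GRD+L/D+L, with adjusted p of 0.588, 0.203 and 0.124 from edgeR.

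Cebpa (ENSMUSG00000034957, chr7:35119293-35121928, plus strand) encodes C/EBPα, which acts later and holds the adipocyte state, and it is also a factor of myeloid cells. Its GRwt/wt values were 7.89, 7.03 and 54.9 CPM in vehicle and 6.01, 19.5 and 9.24 CPM with Dex. The third vehicle library held the highest value of all 23, and the LFC of -1.004 ± 0.59 SE (adjusted p = 0.435, edgeR) became 0.68 without that library. Mutant libraries ran from 8.59 to 20.9 CPM. The LFC of Cebpa against GRwt/wt in vehicle was -0.91 for GRD/D, -0.66 for GRL/L and -1.03 for GRD+L/D+L, with adjusted p of 0.539, 0.420 and 0.217.

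Cebpg (ENSMUSG00000056216, chr7:35046422-35056573, minus strand) encodes C/EBPγ, a short family member that pairs with the others. It was the most even of the C/EBP genes, at 34.0 to 58.6 CPM in every mutant library. GRwt/wt vehicle spanned 18.9, 42.2 and 65.7 CPM, and GRwt/wt Dex 38.1, 42.3 and 44.3 CPM. Both extremes of the 23 libraries were therefore GRwt/wt vehicle replicates 1 and 3, and the LFC with Dex was -0.03 ± 0.28 SE.

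Pparg (ENSMUSG00000000440, chr6:115360951-115490399, plus strand) encodes the nuclear receptor that drives fat cell differentiation, and it was low throughout. In GRwt/wt it was at 3.92, 10.7 and 9.06 CPM in vehicle and at 5.66, 8.53 and 8.68 CPM with Dex (LFC -0.05 ± 0.48 SE). GRD/D held 4.19 and 3.98 CPM in vehicle and 4.23, 4.43 and 3.37 CPM with Dex. GRL/L held 3.89, 1.78 and 7.03 CPM in vehicle and 4.22, 3.10 and 6.70 CPM with Dex. In GRD+L/D+L, replicate 1 was highest under both treatments, with 13.7, 8.69 and 5.89 CPM in vehicle and 18.5, 11.2 and 6.36 CPM with Dex. Under Dex every GRD/D library was below every GRwt/wt library, in a contrast where 23.8% of all tested genes did not overlap. The LFC of Pparg there was -0.92 ± 0.48 SE, with an adjusted p of 0.523 in edgeR.

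Fabp4 (ENSMUSG00000062515, chr3:10204088-10208576, minus strand) encodes the fatty acid carrier of fat cells and macrophages. GRwt/wt vehicle libraries were at 1.54, 8.97 and 22.4 CPM and Dex libraries at 5.16, 68.6 and 15.1 CPM. The groups overlapped, and the LFC of 1.43 ± 0.77 SE (adjusted p = 0.389, edgeR) turned to -0.12 without GRwt/wt Dex replicate 2. GRD/D was at 5.42 and 4.09 CPM in vehicle and at 7.38, 13.4 and 5.21 CPM with Dex. GRL/L lay between 3.72 and 7.17 CPM and GRD+L/D+L between 2.59 and 4.84 CPM over both treatments. All 3 GRD+L/D+L Dex libraries were below all GRwt/wt Dex libraries, the nearest at 4.84 against 5.16 CPM. In that contrast 30.0% of all tested genes did not overlap.

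Lpl (ENSMUSG00000015568, chr8:68880491-68907448, plus strand) encodes lipoprotein lipase, the secreted enzyme that frees fatty acids from circulating triglyceride. It varied 40.3-fold over the libraries, and both ends were GRwt/wt vehicle. GRwt/wt held 4.96, 56.2 and 200.03 CPM in vehicle and 23.4, 128 and 54.8 CPM with Dex, so that the LFC of -0.34 ± 0.89 SE was smaller than its error, and it was 1.20 without vehicle replicate 3. GRD/D vehicle held 106 and 35.0 CPM, and GRD/D Dex 103, 133 and 35.3 CPM. The 3 GRL/L cultures gave 119.7, 145 and 69.3 CPM in vehicle and 120.0, 145 and 56.0 CPM with Dex. GRD+L/D+L gave 26.2, 64.5 and 92.0 CPM in vehicle and 24.1, 70.2 and 89.1 CPM with Dex. In those last 2 genotypes the cultures kept their order under both treatments.

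Cebpa and Lpl varied with the macrophage markers. Over the 23 libraries, which share their sequencing and their cultures, the Spearman correlation with the summed macrophage markers was 0.743 for Cebpa and 0.645 for Lpl, and 0.706 and 0.595 without GRwt/wt vehicle replicate 3. For the other 8 members it lay between -0.465 (Pdk4) and 0.432 (Fabp4), and without that library between -0.582 (Pparg) and 0.37 (Angptl4), so that Pparg varied inversely with the markers about as closely as Lpl varied with them. GRwt/wt vehicle replicate 3 had Lyz2, a macrophage lysozyme, at 3379 CPM, while the other GRwt/wt libraries had 6.68 to 63.6 CPM. All 10 macrophage markers were detected in 19 of the 23 libraries. The part of macrophages in the values of Cebpa and Lpl was not tested.

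**Figure D2:**
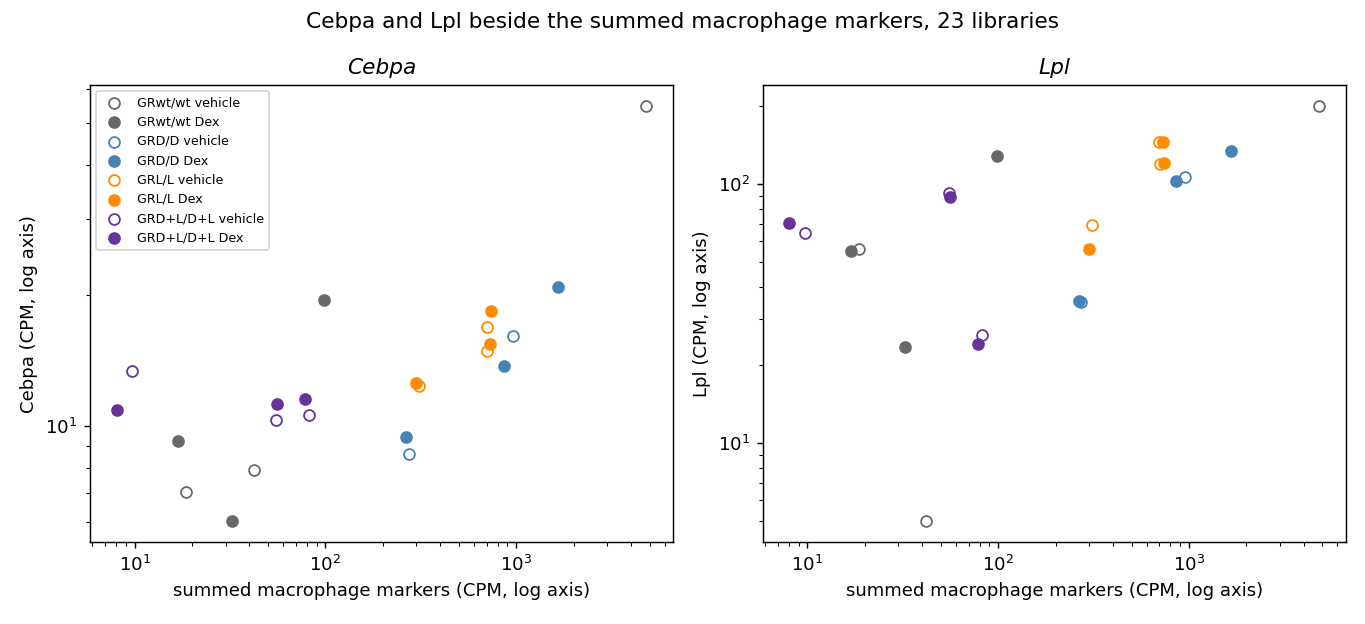
Cebpa and Lpl in CPM against the summed CPM of 10 macrophage markers in each of the 23 libraries, both axes logarithmic; open points are vehicle and filled points Dex. The point at 4803 CPM of markers is GRwt/wt vehicle replicate 3, which has the highest value of both genes.

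Pdk4 (ENSMUSG00000019577, chr6:5483351-5496309, minus strand) encodes pyruvate dehydrogenase kinase 4, which switches off the entry of pyruvate into the citric acid cycle and spares glucose. In GRwt/wt it was at 22.3, 21.5 and 9.60 CPM in vehicle and at 238, 293 and 146 CPM with Dex. Every Dex library was far above every vehicle library, with means of 17.8 ± 7.12 and 226 ± 74.1 CPM (SD, n = 3 each). This was the largest fold of the 10 members, 12.7 (LFC 3.67 ± 0.81 SE), with an adjusted p of 0.084 in edgeR. GRD/D held 25.9 and 24.9 CPM in vehicle and 35.0, 11.7 and 28.2 CPM with Dex, an overlap with an LFC of -0.03 ± 0.82 SE. GRL/L held 56.4, 23.6 and 131 CPM in vehicle and 65.2, 19.0 and 143 CPM with Dex (LFC 0.11 ± 0.73 SE). GRD+L/D+L held 252, 86.3 and 63.9 CPM in vehicle and 258, 87.5 and 61.8 CPM with Dex (LFC 0.02 ± 0.73 SE). The last 2 genotypes showed the gene at very different levels from culture to culture and little difference between treatments of a culture.

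By group mean, Pdk4 ran from GRwt/wt Dex at 226 CPM down through GRD+L/D+L Dex at 136 ± 107 and vehicle at 134 ± 103, GRL/L Dex at 75.6 ± 62.4 and vehicle at 70.2 ± 54.8, GRD/D vehicle at 25.4 ± 0.731 (n = 2) and Dex at 24.9 ± 12.0, to GRwt/wt vehicle at 17.8 CPM (SD, n = 3 unless given). Each neighbouring pair in that order lay within the spread of its libraries. The range of GRD+L/D+L vehicle, 63.9 to 252 CPM, took in the 146 and 238 CPM of GRwt/wt Dex replicates 3 and 1.

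Angptl4 (ENSMUSG00000002289, chr17:33773750-33781830, minus strand) encodes a secreted protein that inhibits lipoprotein lipase, the product of Lpl. GRwt/wt libraries were at 77.3, 53.9 and 49.7 CPM in vehicle and at 37.6, 354 and 66.5 CPM with Dex. Replicate 2 alone was high and replicate 1 was the lowest of all 23 libraries, so the groups overlapped. The LFC of 1.34 ± 0.56 SE (adjusted p = 0.262, edgeR) was -0.21 without GRwt/wt Dex replicate 2. GRD/D was at 138 and 153 CPM in vehicle and at 109, 78.1 and 137 CPM with Dex (LFC -0.43 ± 0.61 SE, adjusted p = 1). Every Dex library was lower, though the nearest values were close, at 137.1 and 137.9 CPM. In that genotype 21.3% of all tested genes did not overlap. GRL/L was at 256, 199.6 and 205 CPM in vehicle and at 261, 209.5 and 204 CPM with Dex. GRD+L/D+L was at 92.9, 181 and 186 CPM in vehicle and at 85.4, 159 and 179 CPM with Dex. In vehicle every mutant library was above every GRwt/wt library, with adjusted p of 0.404 for GRD/D, 0.0238 for GRL/L and 0.0934 for GRD+L/D+L in edgeR. Libraries did not overlap, in either direction, for 23.2%, 38.0% and 27.4% of all tested genes.

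Glul (ENSMUSG00000026473, chr1:153899944-153909723, plus strand) encodes glutamine synthetase, a long-known glucocorticoid-induced enzyme. GRwt/wt libraries held 40.3, 22.98 and 52.3 CPM in vehicle and 123, 83.2 and 77.0 CPM with Dex. There was no overlap, and the means were 38.5 ± 14.8 and 94.5 ± 25.0 CPM (SD, n = 3 each), a fold of 2.45 (LFC 1.29 ± 0.42 SE) with an adjusted p of 0.177 in edgeR. GRD/D held 24.8 and 21.3 CPM in vehicle and 36.1, 35.1 and 28.8 CPM with Dex, again without overlap. In that genotype 21.3% of all tested genes did not overlap, and the LFC of Glul was 0.53 ± 0.48 SE with an adjusted p of 1. GRL/L held 30.0, 28.5 and 26.7 CPM in vehicle and 27.6, 31.1 and 26.6 CPM with Dex. GRD+L/D+L held 45.4, 16.5 and 14.9 CPM in vehicle and 48.9, 15.6 and 18.3 CPM with Dex. The LFC of Glul was 0.0017 ± 0.42 SE for GRL/L and 0.11 ± 0.42 SE for GRD+L/D+L.

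In the mutants no gene at all was called for Dex against vehicle by edgeR, that is 0% of 15748 in each of the 3 mutant genotypes, and 0 of the 10 members. Other fits called a few genes, none of them a member. In GRD/D, edgeR called 2 on that genotype alone and 1 among genes with at least 10 counts in every library, and DESeq2 called 2 there, 0 for GRL/L and 5 for GRD+L/D+L. At an unadjusted p under 0.05 there were 154 genes in GRD/D, 43 in GRL/L cells and 54 in GRD+L/D+L cells, among them 0 members in each. The median LFC of the members was 0.16 for GRD/D, 0.08 for GRL/L and -0.0099 for GRD+L/D+L. Separation of the treatments was found for 2 members higher (Cebpd, Glul) and 1 lower (Angptl4) in GRD/D, where groups of 2 and 3 separate more easily and 21.3% of all tested genes did so, while 0 members separated in either GRL/L or GRD+L/D+L, against 4.84% and 3.37% of all tested genes. The LFC of the 10 members lay between -0.06 (Lpl) and 0.19 (Fabp4) in GRL/L, and between -0.12 (Angptl4) and 0.35 (Pparg) in GRD+L/D+L.

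**Figure D3:**
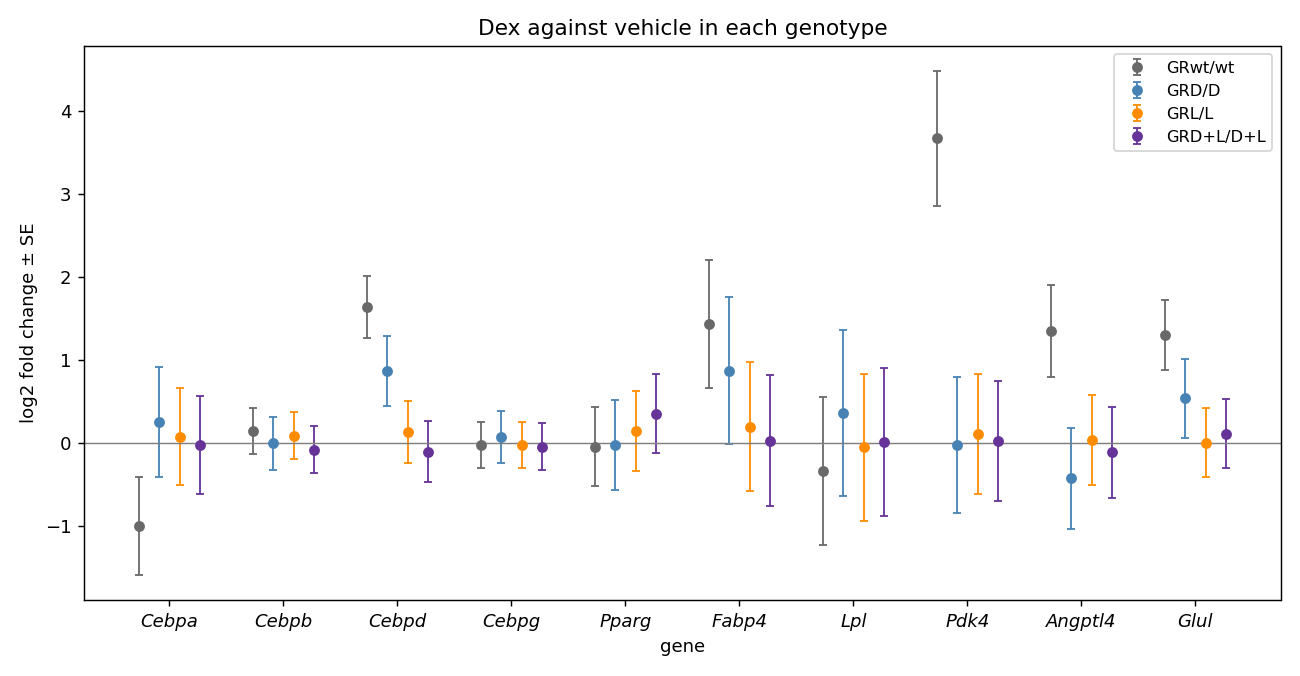
LFC of Dex against vehicle with its SE for each gene, on a linear log2 axis, by genotype. GRwt/wt points stand at 3.67 for Pdk4, 1.64 for Cebpd and 1.29 for Glul, and the GRL/L and GRD+L/D+L points lie between -0.12 and 0.35.

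Cultures of the GRL/L and the GRD+L/D+L genotype could be followed from vehicle to Dex, because same-numbered libraries of these genotypes deviated together over all tested genes. Over the 30 gene and culture pairs of GRL/L, the ratio of Dex to vehicle had a median of 1.04, with a range of 0.805 for Pdk4 to 1.74 for Pparg. In GRD+L/D+L the median was 0.991, with a range of 0.661 for Cebpb to 1.35 for Pparg. The spread between cultures differed from gene to gene. Pdk4 in vehicle varied 5.53-fold over the GRL/L cultures and 3.94-fold over those of GRD+L/D+L, and its ratios of Dex to vehicle were 0.805 to 1.16 and 0.967 to 1.02. Angptl4 stayed within 0.997 to 1.05 of its vehicle value in GRL/L and within 0.880 to 0.963 in GRD+L/D+L. Glul varied 3.05-fold between GRD+L/D+L cultures in vehicle, and its ratios were 0.946 to 1.23. Lpl varied 2.09-fold over the GRL/L cultures with ratios of 0.807 to 1.003, and 3.52-fold over those of GRD+L/D+L with ratios of 0.921 to 1.09. In some cases the spread between cultures was no larger than, or close to, that between treatments. Cebpg varied 1.11-fold over the GRL/L cultures with ratios of 0.873 to 1.11, and Glul 1.13-fold with ratios of 0.919 to 1.09. Cebpb varied 1.58-fold over the GRD+L/D+L cultures with ratios of 0.661 to 1.15, and Cebpa 1.30-fold with ratios of 0.813 to 1.09.

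**Figure D4:**
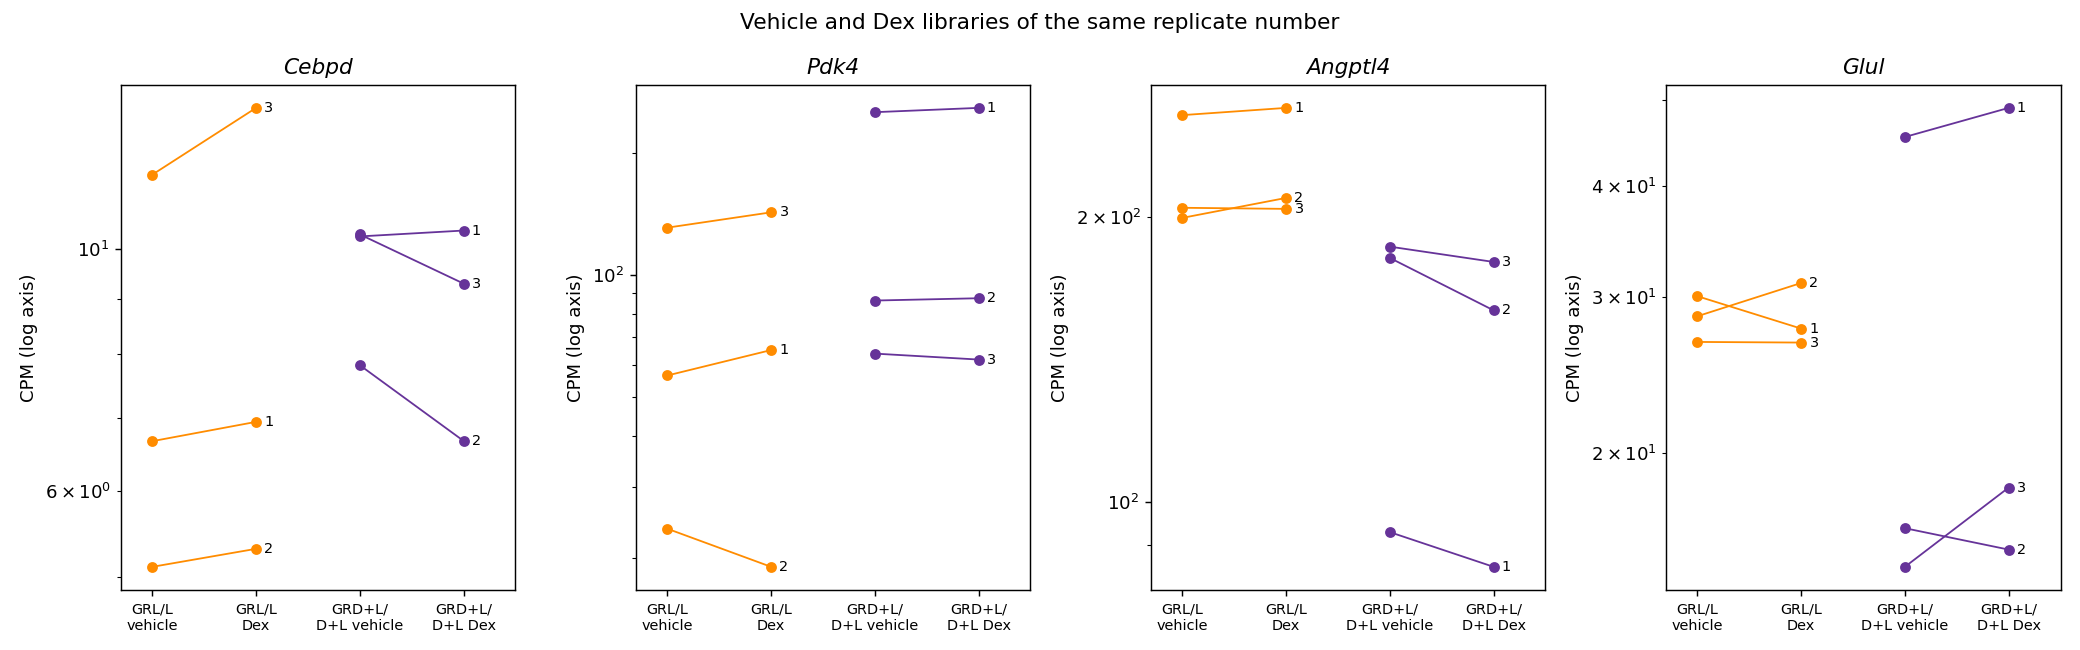
Cebpd, Pdk4, Angptl4 and Glul in CPM on a log axis, with a line from the vehicle to the Dex library of each replicate number in GRL/L cells and GRD+L/D+L cells. For Pdk4 in GRD+L/D+L the lines are close to level, with Dex to vehicle ratios of 0.967 to 1.02, while its GRL/L cultures differ by 5.53-fold in vehicle.

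Whether the Dex response itself differed by genotype was tested as the response in each mutant minus that in GRwt/wt, and those comparisons share the 6 GRwt/wt libraries. The difference for Pdk4 was -3.69 ± 1.11 SE for GRD/D, -3.56 ± 1.06 SE for GRL/L and -3.65 ± 1.06 SE for GRD+L/D+L on the log2 scale, with adjusted p of 0.688, 0.785 and 0.969. For Cebpd it was -0.78 ± 0.55, -1.51 ± 0.52 and -1.74 ± 0.52 (SE), with adjusted p of 0.849, 0.785 and 0.969. Glul gave -0.76 ± 0.62, -1.29 ± 0.59 and -1.18 ± 0.59 (SE), with adjusted p of 0.877, 0.790 and 0.969. Angptl4 gave -1.77 ± 0.82, -1.31 ± 0.77 and -1.46 ± 0.78 (SE), all at an adjusted p of at least 0.696. All 10 members were uncalled here, where edgeR called 0% of genes for GRD/D, 0.0254% (4 genes) for GRL/L and 0.0254% for GRD+L/D+L. At an unadjusted p under 0.05 there were 2, 3 and 2 members, and 1119, 990 and 796 of all tested genes. Without GRwt/wt Dex replicate 2, the difference for Angptl4 became 0.24 for GRL/L and 0.094 for GRD+L/D+L.

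In vehicle, before any Dex was added, Pdk4 and Angptl4 were higher in every library of each mutant than in any GRwt/wt library. Angptl4 was called higher in GRL/L (LFC 1.87 ± 0.56 SE, adjusted p = 0.0238, edgeR), while the LFC was 1.27 ± 0.60 SE in GRD/D and 1.35 ± 0.56 SE for GRD+L/D+L, with adjusted p of 0.404 and 0.0934. Pdk4 was called higher in GRD+L/D+L (LFC 2.91 ± 0.78 SE, adjusted p = 0.0164), while the LFC was 0.51 ± 0.81 SE in GRD/D and 1.98 ± 0.76 SE in GRL/L, with adjusted p of 0.747 and 0.0668. The members called were thus 0 for GRD/D, 1 for GRL/L and 1 for GRD+L/D+L, against 0.00635%, 7.78% and 8.32% of all tested genes. Those shares stood for 1, 1225 and 1311 genes, and became 376, 2674 and 2003 genes without GRwt/wt vehicle replicate 3. For GRL/L the number was 797 without its vehicle replicate 1 and 791 without its replicate 2, and for GRD+L/D+L it was 586 without vehicle replicate 2 and 717 without replicate 3. Libraries of mutant and GRwt/wt did not overlap for 3 members in each mutant (Pdk4 and Angptl4 higher, Cebpb lower), against 23.2%, 38.0% and 27.4% of genes. The 3 mutants were set against the same GRwt/wt vehicle libraries, in which Pdk4 ran from 9.60 to 22.3 CPM and Angptl4 from 49.7 to 77.3 CPM. The call of Angptl4 was lost without GRL/L vehicle replicate 1 (adjusted p = 0.0682) or GRwt/wt vehicle replicate 2 (0.0617), and that of Pdk4 without GRD+L/D+L vehicle replicate 1 (LFC 2.12, adjusted p = 0.0654), which held its highest value. Other omissions brought a call, of Pdk4 higher in GRL/L without GRL/L vehicle replicate 2 (LFC 2.40, adjusted p = 0.0472), and, lower in GRD+L/D+L, of Glul without GRD+L/D+L vehicle replicate 1 (LFC -1.26, adjusted p = 0.0407) and of Fabp4 without GRwt/wt vehicle replicate 1 (LFC -2.20, adjusted p = 0.0364). With all libraries the LFC of Glul there was -0.59 and that of Fabp4 was -1.69. Fitted on the compared genotypes alone, both calls were lost, at adjusted p of 0.0862 for Angptl4 and 0.0599 for Pdk4 in edgeR. Those fits called 705 genes for GRL/L and 111 for GRD+L/D+L. With GRwt/wt vehicle replicates 1 and 3 both left out, the LFC of Angptl4 was 2.01 (adjusted p = 0.118) and that of Pdk4 was 2.63 (adjusted p = 0.159), on 1 remaining GRwt/wt vehicle library. DESeq2 called both Pdk4 and Angptl4 higher in GRL/L and likewise GRD+L/D+L vehicle, where it called 9.08% and 10.1% of genes.

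Under Dex, Cebpd, Glul and Fabp4 were the members called between a mutant and GRwt/wt, and each was lower in the mutant with all 23 libraries. Leaving out single libraries also brought calls of Angptl4, Cebpb and, for GRL/L, Fabp4, whose values are given with the omissions. Cebpd was called lower in GRL/L (LFC -1.98 ± 0.38 SE, adjusted p = 0.00651), and likewise in GRD+L/D+L (LFC -1.94 ± 0.38 SE, adjusted p = 0.00879). Glul was called lower in GRL/L (LFC -1.73 ± 0.43 SE, adjusted p = 0.0260), and likewise in GRD+L/D+L (LFC -1.77 ± 0.43 SE, adjusted p = 0.0275). Fabp4 was called lower in GRD+L/D+L (LFC -3.10 ± 0.83 SE, adjusted p = 0.0400), and in GRL/L its LFC was -2.44 ± 0.80 SE with an adjusted p of 0.0824. These were 2 members for GRL/L and 3 for GRD+L/D+L, where 2.59% and 2.75% of tested genes were called. Those shares stood for 408 and 433 genes. Without any one GRL/L Dex library the first was 148 to 233, and without GRwt/wt Dex replicate 1 or 3 it was 228 or 149. The second was 94 without Dex replicate 2 of GRD+L/D+L, 205 without its replicate 3 and 131 without GRwt/wt Dex replicate 3. In GRD/D, edgeR called 0.254% of genes (40, and 5 to 29 without any one of the Dex libraries compared) and 0 members. At an unadjusted p under 0.05 there were 4 members in GRD/D, and 1750 of all tested genes. Pdk4 had an LFC of -3.18 ± 0.79 SE (adjusted p = 0.0996) there, Glul -1.50 ± 0.43 SE (0.151) and Cebpd -1.23 ± 0.37 SE (0.182). DESeq2 called those 3 in GRD/D, where it called 1.79% of genes. It called Cebpd, Glul and Fabp4 in both GRL/L, with Fabp4 at an adjusted p of 0.0180, and GRD+L/D+L, where it called 4.47% and 4.66% of genes. Separation without overlap covered 4 members in GRD/D (Cebpd, Pparg, Pdk4, Glul), 3 in GRL/L (Cebpd, Pdk4, Glul) and 3 in GRD+L/D+L (Cebpd, Fabp4, Glul), all lower, against 23.8%, 42.7% and 30.0% of tested genes.

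Pdk4 under Dex was not called in GRL/L (LFC -1.58 ± 0.74 SE, adjusted p = 0.215) or in GRD+L/D+L (LFC -0.73 ± 0.73 SE, adjusted p = 0.608). Angptl4 under Dex gave an LFC of -0.50 for GRD/D, 0.56 for GRL/L and -0.11 for GRD+L/D+L, each with an SE of 0.55 and an adjusted p of at least 0.569. These values rested on GRwt/wt Dex replicate 2, the library at 354 CPM. Without it the LFC of Angptl4 was 1.05 for GRD/D (adjusted p = 0.355, edgeR), and the gene was called higher in GRL/L (LFC 2.11, adjusted p = 0.00423) and also GRD+L/D+L (LFC 1.44, adjusted p = 0.0364). Fabp4 in GRD+L/D+L lost its call without GRwt/wt Dex replicate 2, with an LFC of -1.55 and an adjusted p of 0.228, and also without GRwt/wt Dex replicate 3 (0.0699) or any one GRD+L/D+L Dex library (0.0596 to 0.162). Fabp4 was called lower in GRL/L without GRwt/wt Dex replicate 1 (LFC -2.94, adjusted p = 0.0472). Cebpb, with an LFC of -0.85 and an adjusted p of 0.0926 in GRD+L/D+L under Dex, was called lower there without Dex replicate 1 of that genotype (LFC -1.36, adjusted p = 0.00859). Cebpd in GRL/L kept its call without any one of the 6 Dex libraries compared, and in GRD+L/D+L it lost it without Dex replicate 2 of that genotype (0.0646). Glul lost its call in GRL/L without GRwt/wt Dex replicate 1 or 3 or any one GRL/L Dex library (0.0549 to 0.0975), and for GRD+L/D+L when GRwt/wt Dex replicate 1 or 3 or GRD+L/D+L Dex replicate 2 or 3 was left out (0.0602 to 0.138). Without GRD+L/D+L Dex replicate 1, its highest library there, the LFC of Glul was -2.47 (adjusted p = 0.00711). Fitted on the compared genotypes alone, edgeR called 1 member in GRL/L (Glul) and 0 in GRD+L/D+L, where it called 104 and 15 genes.

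**Figure D5:**
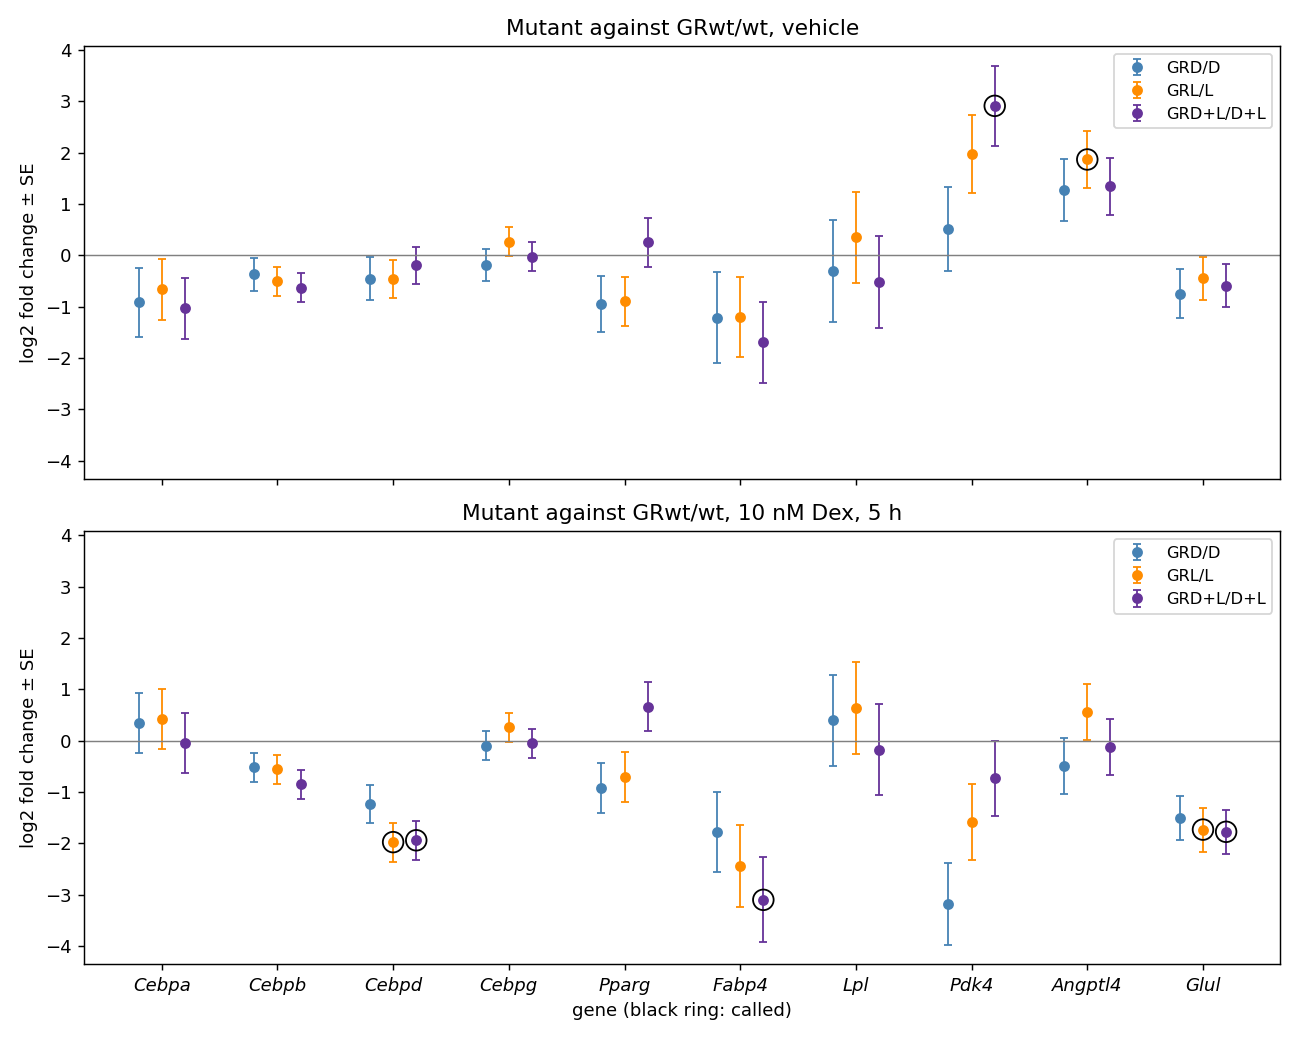
LFC of each mutant against GRwt/wt with its SE, in vehicle (top) and under Dex (bottom), on linear log2 axes; black rings mark called genes. Rings sit above 0 in vehicle, at 1.87 for Angptl4 in GRL/L and 2.91 for Pdk4 in GRD+L/D+L, and below 0 under Dex for Cebpd, Glul and Fabp4.

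Per kilobase of merged exons, GRwt/wt vehicle means were highest for Cebpb at 18.7 and Angptl4 at 17.0 CPM per kb and lowest for Pparg at 2.67 and Fabp4 at 2.45 CPM per kb. With Dex the GRwt/wt order began with Pdk4 at 64.3, Angptl4 at 43.2 and Glul at 28.4 CPM per kb and ended with Cebpa at 4.40 and Pparg at 2.58 CPM per kb. That order rested in part on GRwt/wt Dex replicate 2. Without it, an alternative chosen after seeing the data, Pdk4 at 54.7, Glul at 30.1 and Cebpb at 18.7 CPM per kb came before Angptl4 at 14.7, and Fabp4, at 6.60 with it and 2.26 without, was last. In GRD+L/D+L vehicle, Angptl4 at 43.3 and Pdk4 at 38.2 CPM per kb led, and Pparg stood at 3.20 and Fabp4 at 0.756 CPM per kb. Cebpd was at 2.89 CPM per kb in GRwt/wt vehicle and at 8.99 with Dex. The lowest count behind any member value was 28 reads (Fabp4) and the highest 7566 reads (Angptl4).

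The wider pathways were described with lists chosen by function. Among adipogenic regulators, 21 of 22 listed genes were tested, and Klf15, a Krüppel-like factor that is a direct GR target, was the only one called with Dex in GRwt/wt (LFC 1.83 ± 0.36 SE, adjusted p = 0.0349), from 3.74 ± 1.40 to 13.3 ± 0.598 CPM. Klf15 was lower than GRwt/wt under Dex in GRD/D (LFC -1.76, adjusted p = 0.0441), GRL/L (LFC -2.81, adjusted p = 7.40e-04) and also GRD+L/D+L (LFC -3.80, adjusted p = 7.61e-05), and in vehicle it was lower in GRL/L (LFC -1.15) and also GRD+L/D+L (LFC -1.94), the first call being lost without GRwt/wt vehicle replicate 2 (LFC -0.85, adjusted p = 0.102, edgeR). In vehicle 1 further regulator was called in each of these, Ebf1 higher in GRL/L (LFC 1.45, adjusted p = 0.0261) and Ebf2 higher in GRD+L/D+L (LFC 4.06, adjusted p = 0.0211), both early B cell factors of the adipocyte lineage. These were 2 of the 21 regulators in each contrast, close to the 7.78% and 8.32% of all tested genes. Ebf2 had a mean of 81.6 ± 71.7 CPM in those cultures (SD, n = 3).

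Of 24 listed genes of lipid uptake, storage and lipolysis, 18 were tested and 0 were called with Dex in any genotype. In vehicle, 3 were called lower and 1 higher in GRL/L, namely the fatty acid carrier Fabp5 (LFC -1.80), the lipases Pnpla2 (LFC -1.05) and Mgll (LFC -1.40), and the lipoprotein receptor Lrp1 (LFC 1.30), in a contrast where 7.78% of all tested genes were called. In GRD+L/D+L vehicle, Fabp5 (LFC -2.28) and Mgll (LFC -1.36) were called lower and Lrp1 (LFC 1.66) higher, against 8.32% of all tested genes. The GRwt/wt vehicle libraries behind these values were uneven, with Fabp5 at 67.0, 47.6 and 240.8 CPM, the last in the library with macrophage markers at 4803 CPM. Without that library the LFC of Fabp5 was -0.70 in GRL/L (adjusted p = 0.119, edgeR), which ended the call, and -1.17 in GRD+L/D+L (adjusted p = 0.0196). Without GRwt/wt vehicle replicate 1 the calls of Pnpla2 (LFC -0.66) and Mgll (LFC -1.13, adjusted p = 0.0614) were lost in GRL/L, and that of Mgll (LFC -1.07, adjusted p = 0.0748) in GRD+L/D+L. Lrp1 kept its calls without any one of the 3 GRwt/wt vehicle libraries. The part of macrophages in the values of Fabp5 was not tested. Lrp1 was also called higher under Dex in GRL/L (LFC 1.02) and also GRD+L/D+L (LFC 1.32). Of 17 listed genes of mitochondrial fuel choice, the group that holds the other pyruvate dehydrogenase kinases, 16 were tested, and the single call was Ucp2, a mitochondrial carrier, lower in GRD+L/D+L vehicle (LFC -1.01), a call lost without GRwt/wt vehicle replicate 1 (LFC -0.78) or 3 (LFC -0.81). All 14 listed genes of glutamine and glutamate handling were tested and 0 were called in any of the 13 comparisons. The median LFC with Dex in GRwt/wt was 0.19 for the adipogenic regulators, -0.26 for the lipid genes, 0.0069 for the fuel genes and -0.05 for the glutamine genes, beside 0.72 for the 10 members, or -0.080 without GRwt/wt Dex replicate 2.

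Across the 23 libraries, of which several come from the same culture, the members did not all vary together. The highest Spearman correlations of log2 CPM between members were 0.843 for Cebpa and Lpl, 0.780 for Cebpg and Lpl, 0.675 for Cebpb and Glul, and 0.667 for Cebpb and Cebpd. Pdk4 and Glul gave 0.191, and Pparg and Fabp4 gave 0.0672. Without GRwt/wt vehicle replicate 1, Cebpa and Lpl gave 0.831 and Cebpg and Lpl 0.748. Next were Fabp4 and Glul at 0.70 and Cebpb and Fabp4 at 0.66. Of all tested genes, the one most like Pdk4 was Net1, at 0.936 over the 23 libraries and 0.940 without GRwt/wt vehicle replicate 1. Glul was most like Ets2 (0.891), Angptl4 like Cbfa2t3 (0.894), Cebpd like Sphk1 (0.805), Pparg like Nr4a2 (0.876) and Cebpa like Gpr137b (0.883). Cebpb was most like Cd82 (0.878), Cebpg like Slc36a4 (0.837), Fabp4 like Gm8417 (0.888) and Lpl like Cept1 (0.869). Without GRwt/wt vehicle replicate 1 the first gene changed for 5 members, to Zbtb16 for Cebpd (0.804), Il18 for Cebpb (0.935), Fkbp1b for Cebpg (0.851), Fuca1 for Fabp4 (0.906) and Hvcn1 for Lpl (0.877).

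Some members share exons with other annotated genes on GRCm38. Cebpd overlaps Spidr by 562 exon bases, Cebpb overlaps Tmem189 by 312, Glul overlaps Teddm2 by 116 and Cebpa overlaps Gm45091 by 51, each on the opposite strand. Cebpg shares 73 exon bases with predicted genes of its own strand, and Glul 93 with Mir8114. Whether counting used strand is not stated in the sources used here, so reads in those stretches are uncertain. Fabp4, Lpl, Pdk4 and Angptl4 overlap no annotated gene.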

How the data were processed

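RNA-seq libraries from the 23 samples were compared as 8 groups of genotype and treatment. Per the labels and the study's methods, the authors prepared TruSeq libraries, sequenced them on a NovaSeq instrument, aligned the reads to mm10 with HISAT2 2.1.0, discarded those without a unique position and used featureCounts 2.0.0 to obtain gene counts. The deposited values are whole-number read counts per Ensembl gene, not normalized, and multi-mapping reads of near-identical genes are lost. The annotation release and the strand setting are not given in the sources used here.

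Symbols, positions and exon lengths came from GENCODE M21 (GRCm38), which matched 55227 of 55487 genes, and promoters from RefSeq. Counts were fitted with edgeR 4.0.16 (R 4.3.3, limma 3.58.1), one mean per group over all 23 libraries, TMM scaling, filterByExpr (minimum count 10) and prior count 0.125. The 13 contrasts were tested by quasi-likelihood with Benjamini-Hochberg adjustment. SE is the LFC divided by the root of F. DESeq2 1.42.0 was an alternative, as were other scalings, filters, prior counts, omitted libraries, a replicate block and fits on fewer genotypes. The scripts were tested on simulated data. No 2 replicates agreed within sampling noise, since the lowest chi-square per gene was 9.11.

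All 10 members are described. From each pathway list, called genes were counted and at most 3 per direction with the largest LFC and a mean of at least 1 CPM were named, and for each member the most similar gene by Spearman correlation. The members and lists were chosen with earlier results of these data known.

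Same-numbered vehicle and Dex libraries were checked for pairing by correlating their deviations from the group means over tested genes. The correlations were 0.431, 0.741 and 0.733 in GRL/L and 0.928, 0.847 and 0.773 in GRD+L/D+L, so the numbers pair there. They were 0.572, 0.065 and 0.0323 in GRwt/wt and 0.339 and -0.233 in GRD/D, where the libraries share only a number. GRD/D vehicle replicate 2 had Xist at 0.0517 CPM and Dex replicate 2 at 346 CPM, so those libraries differed in sex.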

Additional observations from a re-analysis of the deposited data

How the results depend on the processing

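Precision is limited by 2 or 3 libraries per group and by the spread among GRwt/wt vehicle libraries. Fabp4 rests on as few as 28 reads in a library, and counts cover counting error only. For Dex in GRwt/wt, edgeR called 25 genes, DESeq2 279, the fit with the replicate block 199 and the fit on GRwt/wt alone 0. Of the 10 members, DESeq2 called 2 there, and 2 in GRL/L vehicle, 2 in GRD+L/D+L vehicle and 3 in each mutant under Dex. With the replicate block, 3 members were called for Dex in GRwt/wt (Pdk4 at an LFC of 3.70, adjusted p = 4.73e-04, Cebpd at 1.61, 0.0156, and Glul at 1.34, 0.0148) and 1, Pdk4, for each mutant response minus GRwt/wt (LFC -4.02, adjusted p = 0.00572, in GRD/D; -3.69, 0.00592, in GRL/L; -3.70, 0.00561, in GRD+L/D+L). Replicate numbers pair libraries of GRL/L and of GRD+L/D+L only, and the block changed no call of a member within either of these genotypes. In GRD/D it gave 7 genes called for Dex, none of them a member. Where GRwt/wt or GRD/D libraries enter, they share only a number, and in both of these genotypes not every library correlated best with its own number. The genotype contrasts could not be blocked because mutants and GRwt/wt come from different mice. With the block, the LFC in GRwt/wt changed sign to 0.14 for Cebpg, 0.036 for Pparg and 0.57 for Lpl. On the compared genotypes alone, 0 members were called in vehicle for either GRL/L or GRD+L/D+L, and under Dex 1 was called in GRL/L. Among all tested genes these smaller fits also made fewer calls, with numbers given in the Results. The fit over all libraries had called 1225 and 1311 genes in vehicle, and 408 for GRL/L under Dex. With GRwt/wt vehicle replicates 1 and 3 omitted, an alternative chosen after seeing the data, 0 members were called in either vehicle contrast, and the LFC with Dex in GRwt/wt was 0.71 for Cebpa and 0.28 for Lpl. The LFC of Glul in GRL/L was -0.000651 with RLE factors, -0.000417 with upper-quartile scaling and -0.00145 with DESeq2. The cause of these changes was not tested.

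Leaving out single libraries gave 0 to 1 members called for Dex in GRwt/wt (Pdk4 without vehicle replicate 2, Cebpd without vehicle replicate 3), 0 to 2 in GRL/L vehicle, 1 to 2 in GRD+L/D+L vehicle, 1 to 3 in GRL/L under Dex and 0 to 3 in GRD+L/D+L under Dex. The members called were not the same ones at each omission. It moved the LFC in GRwt/wt over -1.61 to 0.68 for Cebpa, -0.38 to 0.48 for Cebpg, -0.37 to 0.22 for Pparg, -0.12 to 2.52 for Fabp4, -1.16 to 1.20 for Lpl and -0.21 to 1.84 for Angptl4. It moved Pdk4 over -0.35 to 0.31 in GRD/D, -0.74 to 0.92 in GRL/L and -0.84 to 0.85 in GRD+L/D+L. In GRL/L the ranges were -0.052 to 0.46 for Fabp4, -0.35 to 0.54 for Cebpd, -0.067 to 0.046 for Glul and -0.34 to 0.25 for Lpl. In GRD+L/D+L they were -0.10 to 0.71 for Pparg, -0.25 to 0.057 for Cebpd, -0.60 to 0.81 for Glul and -0.38 to 0.14 for Angptl4. The difference in Dex response of Angptl4 from GRwt/wt ran from -1.81 to 0.24 for GRL/L and from -1.96 to 0.094 for GRD+L/D+L. The median LFC of the members in GRD/D ran from -0.056 to 0.35. Without one GRD/D vehicle library, the group had 1 library, which was assumed to vary like the others. Upper-quartile scaling moved the median LFC of all genes in the vehicle contrasts to -0.16 for GRD/D, -0.17 for GRL/L and -0.19 for GRD+L/D+L, and the split of calls from 777 genes higher and 448 lower to 706 and 795 for GRL/L, and from 570 and 741 to 501 and 1075 for GRD+L/D+L.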
